A study of Mus musculus with 4 samples.

Results

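Glycolysis and hypoxia response genes were followed in RNA sequencing of mouse gastric organoids, as 38 genes chosen by symbol from 45777 genes in the files. The 38 genes comprise 3 carriers of glucose or lactate, 16 glycolytic enzymes, 3 regulators of glycolytic flux, 4 genes of the HIF oxygen sensor and 12 hypoxia response targets. All 38 had enough reads to be tested. Gastric organoids are cultures of stomach epithelium that grow in a gel as hollow balls of cells. The Control group carries knockouts of Cdh1 (E-cadherin) and Trp53 (p53), and the Smad4 Knockout group carries knockouts of Cdh1, Trp53 and Smad4, the common mediator with which receptor-activated SMADs pair in TGF-beta and BMP signalling. Neither group is wild type, so every value below comes from cells labelled as lacking Cdh1 and Trp53. Each group held 2 libraries of total RNA, from lines named CPE and CPG (Control 1 and 2) and CPS1 and CPS4 (Smad4 Knockout 1 and 2). The lines were kept in L-WRN supernatant with 5% serum, and all 4 were moved for their last 2 days to B27 and N2 medium that lacked both. The sources used here do not give the age or number of the animals, how the alleles were made, the oxygen tension, or whether the Smad4 Knockout lines descend from the Control lines. The p-values below thus rest on the spread among 4 libraries, which may be technical.

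Glycolysis splits glucose into pyruvate in the cytosol and yields ATP without oxygen, and lactate dehydrogenase then turns pyruvate into lactate for export. Hypoxia-inducible factor (HIF) joins an oxygen-labile alpha subunit, HIF-1 alpha or HIF-2 alpha, to a stable partner and switches on genes that hold a short HIF-binding core. In normal oxygen, prolyl hydroxylases mark the alpha subunit for destruction, so HIF activity is set largely on the protein, not on its transcript. Many glycolytic genes are themselves HIF targets, and proliferating and tumour epithelium often uses glycolysis even where oxygen is present.

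Depth was similar in the 4 libraries, at 85649781 to 99845702 counts, with mitochondrial genes at 0.941% to 1.48% of the counts, highest in Smad4 Knockout 2. Smad4 measured 94.5 and 103 CPM in Control and 54.4 and 52.9 CPM in Smad4 Knockout, CPM being counts relative to the TMM-scaled library size. Pairs of values follow this order throughout, Control 1 and 2 first, then Smad4 Knockout 1 and 2. Smad4 in the knockouts was at 54.2% of the Control level (log2 fold change -0.88, SE 0.10, edgeR unadjusted p = 0.000163, edgeR adjusted p = 0.677). The labelled order held, with transcript left in both knockout libraries, but edgeR did not call Smad4 itself over all genes. At least 1 of the alternatives listed under the processing did call it. Its log2 fold change was -0.94 to -0.82 when a library was left out and -0.88 to -0.76 otherwise. Transcript of the other targeted genes was also present, at 26.02 to 44.1 CPM for Cdh1 and 4.69 to 6.98 CPM for Trp53, and no library with either gene intact was analysed here. Of 15 markers of gastric and glandular epithelium, the keratin Krt8 led at 3260 to 3582 CPM and the stomach claudin Cldn18 was at 248 to 255 CPM. The mucins Muc5ac and Muc6 were at most at 2.35 and 0.16 CPM, and the pepsinogen gene Pgc had 0 counts in all libraries, so these 3 were low or absent. Of 14 tested markers on that list, 6 had a log2 fold change below 0 and 8 above. Cldn18, Muc6 and Sox2 were lower in both knockouts, with Sox2 at 31.4 and 36.2 versus 27.7 and 30.9 CPM. Tff1, Tff2 and Gkn1 were higher in both, without passing over all genes. The trefoil peptide genes Tff1 and Tff2 were at 24.7 and 16 versus 31.6 and 61.4 CPM and at 17.9 and 12.9 versus 37.6 and 23.4 CPM. The gastrokine gene Gkn1 was at 2.95 and 2.54 versus 5.87 and 19.98 CPM (unadjusted p = 0.0151, 0.0111 and 0.00722 for the 3 genes, edgeR adjusted p = 0.677 for each). Gkn3 overlapped, at 11.8 to 59.2 CPM. Summed over 8 fibroblast markers the level was 2.65 and 3.70 CPM in Control and 2.00 and 1.10 CPM in Smad4 Knockout, with Pdgfrb and Lum at 0. Summed over 5 endothelial markers it was 5.98 and 5.29 versus 4.72 and 4.003 CPM, none of them at 0 in all libraries, and over 6 immune markers it was 4.26 to 4.41 CPM, with Cd3e at 0. Over 5 erythroid markers it was at most 0.0863 CPM, with Hba-a2 at 0. Summed over 8 squamous markers it was 136 and 105 CPM versus 212 and 277 CPM, mostly Krt4, a keratin of squamous epithelium, at 116 and 89.9 versus 192 and 251 CPM. Fibroblast, endothelial and squamous sums thus did not overlap between the groups. Nor did Cldn18, Muc6, Sox2, Tff1, Tff2 and Gkn1 by CPM, 6 of the 14 tested markers on their list, where 36.9% of all genes did not overlap. On the TPM scale, described below, Cldn18 and Sox2 did overlap. The part of all these sums and genes in the results below was not tested.

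None of the 38 genes passed the test between the genotypes. With edgeR's quasi-likelihood test, 0 were higher and 0 lower at an adjusted p of 0.05 over 18115 genes, and the share of all genes called was 0.0%. At an unadjusted p under 0.05, 5 of the 38 were lower in the Smad4 Knockout group (Ddit4, Vegfa, Pgam1, Slc2a1 and P4ha2) and 0 were higher, where 3.04% of all genes were lower, 3.33% higher and 6.36% either at that level. DESeq2 also called 0 of the 38, with 6 at an unadjusted p under 0.05 and a smallest adjusted p of 0.148, while it called 0.701% of all genes. Without Smad4 Knockout 2 the count of 5 became 0, without Control 1 it became 2 lower and 2 higher, and without Control 2 it became 11 lower and 1 higher.

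Most of the genes nonetheless lay on the lower side. Of the 38, 30 had a log2 fold change below 0, where 50.5% of all genes did, and the median was -0.12 against -0.0026 for all genes tested. In 12 of the 38 both knockout libraries were below both controls (18.6% of all genes) and in 4 both were above (18.2%), so 16 did not overlap (36.9% of all genes). On the TPM scale, which divides by transcript length and sets all libraries to 1 total, these counts were 8 and 5. With limma on log2(TPM + 1), 24 of 38 genes were below 0 without a filter and 23 of 37 with one. By TPM the groups overlapped for Pfkm, Pgk1, Hif1a, Egln1 and Ndrg1, while Eno1 joined the lower genes and Gapdh the higher ones. The lower median rested on Control 1, since without that library it was 0.0078, with 18 of 38 genes below 0. Control 1 was the highest library for 23 of the 38 genes (26.8% of all genes) and Smad4 Knockout 2 the lowest for 22 (27.2% of all genes). In 26 of the 38 genes the gap between the 2 controls was larger than the fold change between genotypes, which held for 60.2% of all genes.

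**Figure D1:**
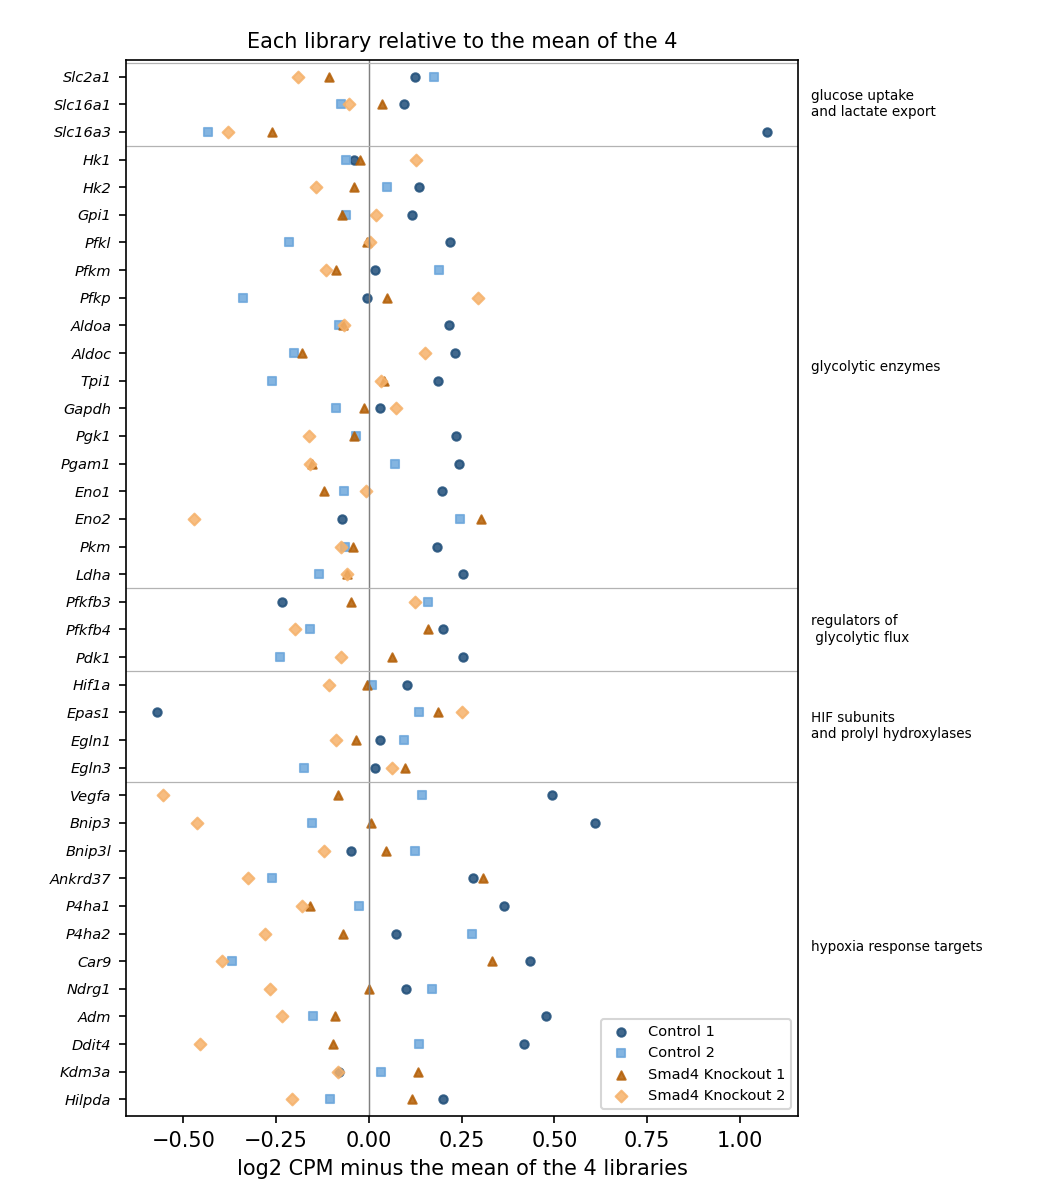
Log2 CPM of each gene in each library minus the mean of the 4 libraries (x axis) for the 38 genes in order of role (y axis); 1 point is 1 library. Control 1 is the highest library for 23 genes, and Smad4 Knockout 2 is the lowest for all 12 hypoxia response targets.

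Levels spanned 4 orders of magnitude and were set by the gene far more than by the library. By TPM, the scale on which levels of different genes can be compared, the 16 enzymes together made up 0.764% and 0.675% of the transcripts in the 2 Control libraries and 0.703% and 0.65% in the knockouts. The groups overlapped in this sum. Pkm, pyruvate kinase, the last step of glycolysis, was the most abundant at 1987, 1826, 1855 and 1643 TPM in Control 1, Control 2, Smad4 Knockout 1 and Smad4 Knockout 2, and took 25.3% to 27.0% of the enzyme total. In each library 10 of the 38 genes were above 100 TPM and 8 were below 10 TPM. The lowest was Eno2, the neuronal enolase, at 0.11 to 0.21 TPM.

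**Figure D2:**
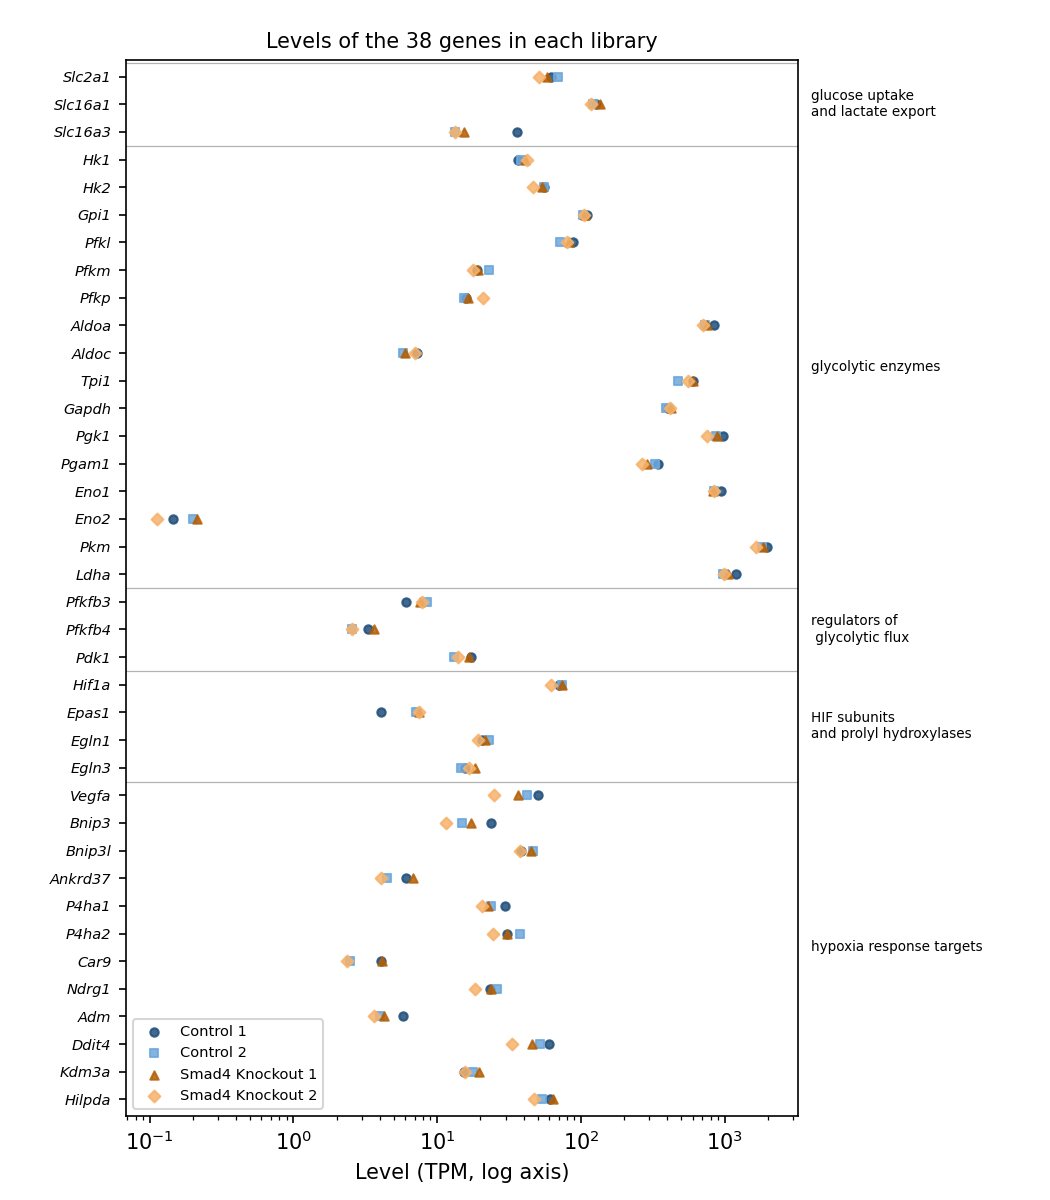
TPM of the 38 genes (x axis, log scale) in the 4 libraries, in order of role (y axis); 1 point is 1 library. Pkm is the most abundant, at 1643 to 1987 TPM, and the 4 points of a gene mostly lie close together, with Slc16a3 in Control 1 set apart.

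Among the carriers, Slc2a1 was lower in both knockouts and Slc16a3 stood out in 1 control. Slc2a1 (chromosome 4, 119108745 to 119137330 on GRCm38, named mm10 in the labels) encodes GLUT1, the basal glucose transporter. It measured 103 and 107 CPM in Control and 87.6 and 82.8 CPM in Smad4 Knockout. The groups did not overlap, and the log2 fold change was -0.30 (SE 0.099, unadjusted p = 0.0239, edgeR adjusted p = 0.697). Slc16a1, which encodes the monocarboxylate carrier MCT1, was at 366 and 325 CPM versus 351 and 330 CPM, with overlapping groups and a 95% interval of the log2 fold change from -0.28 to 0.24. Slc16a3 (chromosome 11, 120948484 to 120959000) encodes MCT4, the lactate exporter of glycolytic cells. It was at 56.2 CPM in Control 1 and at 19.8, 22.3 and 20.5 CPM in Control 2 and the knockouts, so that 1 library was 2.84 times the other control and the remaining 3 were close together. Its log2 fold change of -0.83 (SE 0.45, edgeR adjusted p = 0.84) became 0.11 without Control 1. The ratio of Slc16a1 to Slc16a3 per length was 3.60 in Control 1 and 9.21, 8.75 and 8.83 in the others. Csnk1d overlaps Slc16a3 in RefSeq and was at 190 and 196 CPM versus 172 and 167 CPM, so its level in Control 1 did not stand apart.

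The 16 glycolytic enzymes differed little between genotypes, with 12 below 0, 4 above and a median log2 fold change of -0.13. Without Control 1 the direction turned, with 5 below 0, 11 above and a median of 0.026. For 15 of the 16 the 95% interval lay inside a 2-fold change in either direction, from -0.57 to 0.73 on the log2 scale, and the exception was Eno2. Among the first steps, Hk2, the inducible hexokinase, measured 195 and 183 CPM in Control and 173 and 161 CPM in Smad4 Knockout (log2 fold change -0.18, SE 0.10, edgeR adjusted p = 0.845). Hk1, the housekeeping hexokinase, was at 97.8 and 96.3 CPM versus 98.9 and 110 CPM (0.11, SE 0.10, edgeR adjusted p = 0.952). The 2 hexokinases thus lay on opposite sides without overlap, with Hk1 at 0.041 and Hk2 at -0.12 without Smad4 Knockout 2, and the ratio of Hk2 to Hk1 per length was 1.503 and 1.44 in the 2 Control libraries and 1.31 and 1.10 in the knockouts. Gpi1, glucose-6-phosphate isomerase, measured 205 and 181 CPM in Control and 180 and 192 CPM in Smad4 Knockout.

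Phosphofructokinase commits sugar to glycolysis, and its liver, muscle and platelet subunits were all present. Pfkl, the liver subunit, took 71.6% and 65.0% of phosphofructokinase TPM in the 2 Control libraries and 69.9% and 67.4% in the knockouts, so it led in every library. Pfkp, the platelet subunit, was at 43.2 and 34.3 CPM versus 44.9 and 53.2 CPM, and Pfkm, the muscle subunit, was at 35.2 and 39.6 CPM versus 32.7 and 32.1 CPM. Pfkp was thus higher in both knockouts (log2 fold change 0.34, SE 0.16, edgeR adjusted p = 0.819) and Pfkm lower in both (-0.21, SE 0.12, edgeR adjusted p = 0.85). Without Control 2 these were 0.18 and -0.12. The Pfkp share was 12.9% and 14.0% in the controls, against 13.8% and 17.6% in the knockouts, which overlap. Senp1 overlaps Pfkm and Pitrm1 overlaps Pfkp in RefSeq, each at a higher level, and the sources used here do not say whether counting used the strand.

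For Ldha, Tpi1 and Aldoa, of the steps after phosphofructokinase, the controls differed more from each other than the knockouts did. Ldha, lactate dehydrogenase A, was at 1247 and 952 CPM in Control and 1003 CPM in each knockout. Tpi1, triose phosphate isomerase, was at 625 and 459 CPM versus 565 and 562 CPM, and Aldoa, the main aldolase, was at 840 and 684 CPM versus 689 and 690 CPM. In each of these genes the knockouts lay between or beside the controls, and Control 1 was highest. The 2 knockouts were within 10% of each other for 13 of the 16 enzymes and the 2 controls for 3. Gapdh, often taken as a reference gene, was at 369 and 340 CPM versus 358 and 381 CPM, with a 95% interval from -0.19 to 0.31. Pkm (-0.12, SE 0.11), Eno1, the ubiquitous enolase (-0.13, SE 0.12) and Pgk1, phosphoglycerate kinase (-0.21, SE 0.12), likewise had log2 fold changes below 0. Pgk1, at 1144 and 949 versus 945 and 869 CPM, did not overlap by a narrow margin, and its log2 fold change was -0.063 without Control 1. The minor isozyme Aldoc was at 9.28 to 12.5 CPM in all libraries, and Aldoa exceeded it by 101 to 126 times per length.

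Pgam1, phosphoglycerate mutase (chromosome 19, 41911871 to 41918665), was the enzyme with the smallest p. It measured 406 and 360 CPM in Control and 308 and 307 CPM in Smad4 Knockout, 80.4% of the Control level. The groups did not overlap, and the log2 fold change was -0.31 (SE 0.10, unadjusted p = 0.0236, edgeR adjusted p = 0.696). Its near copies Pgam1-ps1 and Pgam1-ps2, annotated as pseudogenes, held 39.5% to 41.1% as many counts as Pgam1, so reads may be divided among the copies and the level of each is uncertain. Pgam1-ps2 itself was at 154 and 138 versus 122 and 120 CPM, which is the same order. For Eno1 the copy Eno1b held 4.05% to 4.35% as many counts.

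Of the 3 regulators of flux, each had a larger gap between the controls than between the genotypes. Pfkfb3, the bifunctional enzyme that makes the activator of phosphofructokinase, measured 19.0 and 24.9 CPM in Control and 21.5 and 24.3 CPM in Smad4 Knockout (log2 fold change 0.064, SE 0.17, edgeR adjusted p = 0.995). Its relative Pfkfb4 was at 7.84 and 6.12 versus 7.62 and 5.94 CPM. Pdk1, a HIF target, encodes a kinase that inhibits pyruvate dehydrogenase and so limits the oxidation of pyruvate in the mitochondrion. It was at 57.7 and 40.9 versus 50.5 and 45.9 CPM, with a 95% interval from -0.48 to 0.41. In all 3 genes the groups overlapped.

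**Figure D3:**
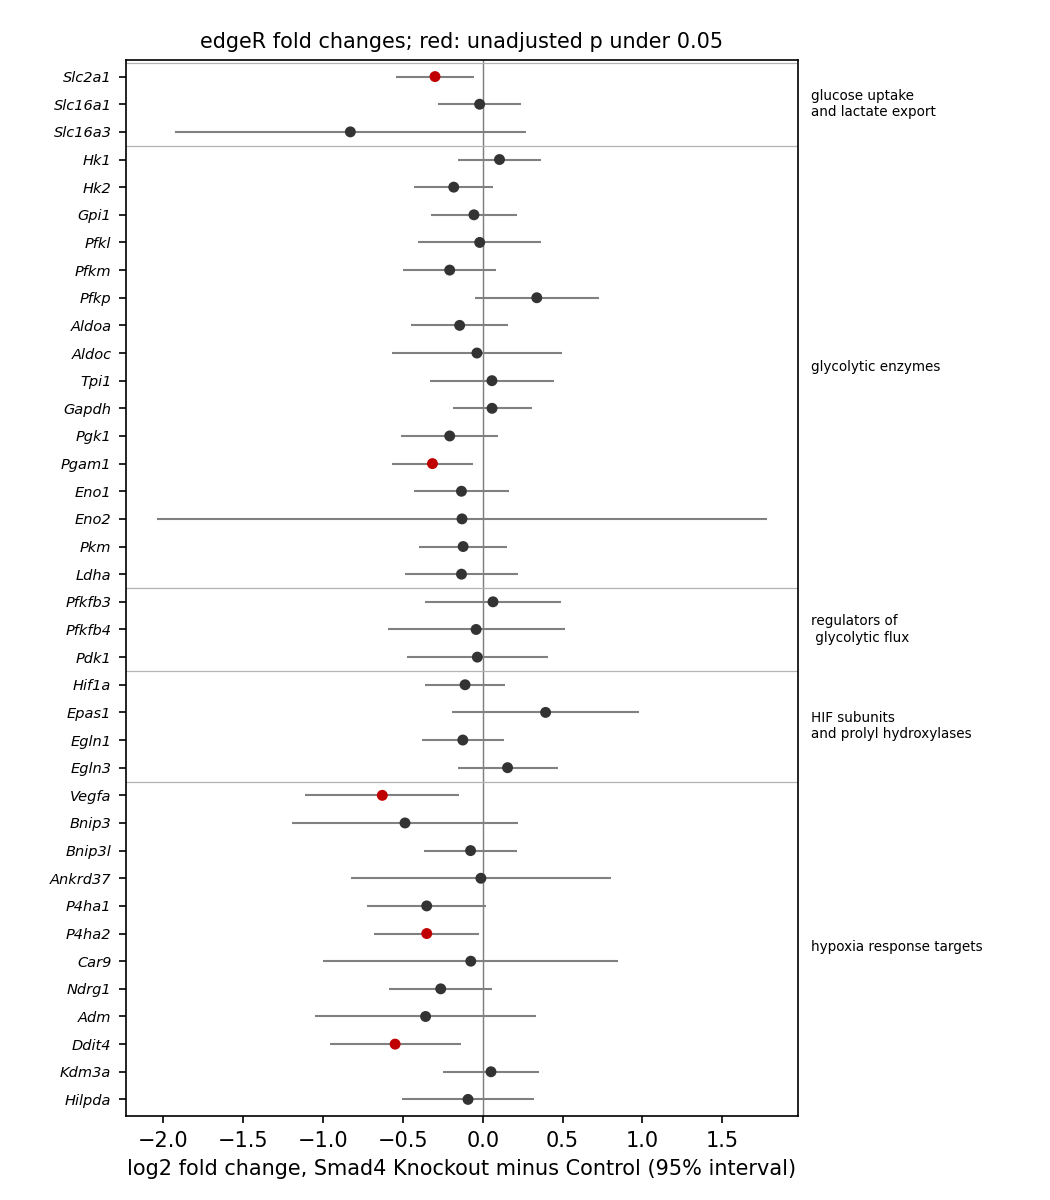
Log2 fold change (x axis, Smad4 Knockout minus Control) with its 95% interval for the 38 genes in order of role (y axis), from edgeR. The 5 red points are genes with an unadjusted p under 0.05, all of them lower in the knockouts, and 33 of the 38 intervals lie inside a 2-fold change.

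Of the 4 genes of the oxygen sensor, by CPM 2 were lower in both knockouts (18.6% of all genes) and 2 higher in both (18.2%). None was called by edgeR. Hif1a, which encodes HIF-1 alpha (chromosome 12, 73901324 to 73947554), measured 205 and 192 CPM in Control and 191 and 178 CPM in Smad4 Knockout. The groups just failed to overlap, and the log2 fold change was -0.11 (SE 0.10, edgeR adjusted p = 0.943, 95% interval from -0.36 to 0.14). Epas1, which encodes HIF-2 alpha, was at 13.8 and 22.6 CPM versus 23.4 and 24.5 CPM (0.39, SE 0.24, edgeR adjusted p = 0.863, 95% interval from -0.19 to 0.98). Here Control 1 alone was low, and without it the log2 fold change was 0.08. Per length Hif1a exceeded Epas1 by 17.3 and 10.4 times in the 2 Control libraries and by 9.83 and 8.34 times in the knockouts. Egln1, the main prolyl hydroxylase, was at 46.2 and 48.2 CPM versus 44.1 and 42.5 CPM, and Egln3, a hydroxylase that HIF induces, was at 27.1 and 23.8 versus 28.7 and 28.0 CPM. They lay on opposite sides without overlap, at log2 fold changes of -0.12 (SE 0.11) and 0.16 (SE 0.13, and 0.063 without Control 2), and the Egln1 to Egln3 ratio per length was 1.30 and 1.55 against 1.17 and 1.16. These tests measure transcripts only, and HIF protein was not analysed here.

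The 12 hypoxia response targets had a median log2 fold change of -0.31, with 11 below 0 and 1 above. The median was -0.096 without Control 1, with 9 below 0, and -0.18 without Smad4 Knockout 2, with 7 below 0. In 5 of the 12 both knockouts were below both controls (18.6% of all genes) and in 0 both were above (18.2%). Smad4 Knockout 2 was the lowest library for 12 of 12 (27.2% of all genes), and for 11 of 12 by TPM, where Kdm3a was the exception. Against the mean of the controls the median was -0.18 in Smad4 Knockout 1, with 7 of 12 below, and -0.40 in Smad4 Knockout 2, with 12 of 12 below. The 2 controls also differed in these genes, with a median gap of 0.33 in favour of Control 1.

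**Figure D4:**
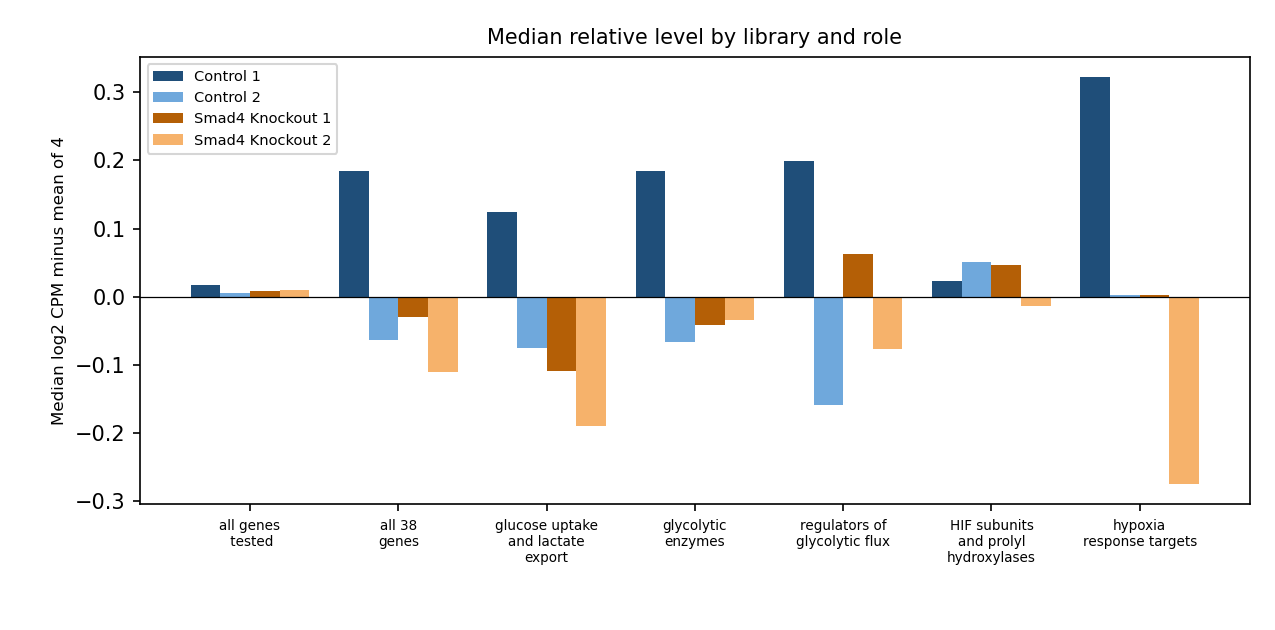
Median over the genes of a role (x axis) of log2 CPM minus the mean of the 4 libraries (y axis); 1 bar is 1 library, and all 18115 genes tested are at the left. The hypoxia response targets run from 0.32 in Control 1 to -0.27 in Smad4 Knockout 2, with Control 2 and Smad4 Knockout 1 both at about 0 (0.0023 and 0.0028).

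Vegfa and Ddit4 had the smallest p-values of the 38. Vegfa, the main growth factor for blood vessels (chromosome 17, 46016993 to 46032377), measured 110 and 86.02 CPM in Control and 73.6 and 53.0 CPM in Smad4 Knockout, 64.7% of the Control level. The groups did not overlap, and the log2 fold change was -0.63 (SE 0.20, unadjusted p = 0.0189, edgeR adjusted p = 0.677), with -0.40 without Smad4 Knockout 2 and -0.88 without Smad4 Knockout 1. Ddit4, which encodes REDD1, an inhibitor of mTORC1 (chromosome 10, 59949675 to 59951770), was at 64.7 and 53.1 CPM versus 45.2 and 35.3 CPM. It was 68.4% of the Control level with no overlap (log2 fold change -0.55, SE 0.17, unadjusted p = 0.0172, edgeR adjusted p = 0.677), and -0.37 without Smad4 Knockout 2. Group means were 97.9 ± 16.8 and 63.3 ± 14.5 CPM for Vegfa and 58.9 ± 8.21 and 40.3 ± 7.05 CPM for Ddit4 (SD, n = 2 each). Neither passed over all genes.

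Both collagen prolyl 4-hydroxylase alpha subunits, which hydroxylate collagen in the endoplasmic reticulum, were lower in both knockouts. P4ha2 measured 45.2 and 52.2 CPM in Control and 41.0 and 35.4 CPM in Smad4 Knockout (log2 fold change -0.35, SE 0.13, unadjusted p = 0.0405, edgeR adjusted p = 0.756). P4ha1 was at 74.5 and 56.8 versus 51.8 and 51.1 CPM (-0.35, SE 0.15, edgeR adjusted p = 0.802). Without Control 1 the log2 fold change of P4ha1 was -0.14. Ndrg1, a stress-responsive gene, was at 43.05 and 45.2 versus 40.2 and 33.4 CPM (-0.26, SE 0.13, edgeR adjusted p = 0.832, and -0.12 without Smad4 Knockout 2).

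The mitophagy receptor Bnip3 was at 26.6 CPM in Control 1 and at 15.7, 17.6 and 12.7 CPM in Control 2 and the knockouts. The groups overlapped, and its log2 fold change of -0.49 (SE 0.29, edgeR adjusted p = 0.857) became -0.053 without Control 1. Its relative Bnip3l was at 80.4 and 90.6 versus 85.8 and 76.4 CPM. The 2 receptors thus did not share the high value of Control 1, and the Bnip3l to Bnip3 ratio per length was 1.64 there and 2.65 to 3.27 in the other libraries.

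Car9, Ankrd37 and Hilpda divided the libraries in another way than genotype, and so did other genes of the list. Car9, carbonic anhydrase IX, was at 5.13 CPM in Control 1 and 4.79 CPM in Smad4 Knockout 1, and at 2.95 CPM in Control 2 and 2.89 CPM in Smad4 Knockout 2 (log2 fold change -0.075, SE 0.38, edgeR adjusted p = 0.995). Ankrd37, an ankyrin repeat gene induced by hypoxia, divided in the same way, with 3.61 and 3.68 CPM in Control 1 and Smad4 Knockout 1 and 2.48 and 2.37 CPM in the other two. Hilpda, a lipid droplet protein, was at 38.5 and 36.3 CPM in Control 1 and Smad4 Knockout 1 and at 31.2 and 29.0 CPM in Control 2 and Smad4 Knockout 2. In these 3 genes both first libraries lay above both second ones. The same order was seen for Slc16a1, Slc16a3, Tpi1, Pkm, Pfkfb4, Pdk1, Bnip3 and Adm. Library numbers follow the order of the samples and pair nothing. Reads of Car9 and Ankrd37 are uncertain without a known strand, because Tpm2 and Arhgef39 overlap Car9, and Ufsp2 overlaps Ankrd37, all at higher levels. Adm, the vasodilator peptide adrenomedullin, was at 5.20 CPM in Control 1 and 3.18 to 3.51 CPM elsewhere, and Kdm3a, a histone demethylase, was at 47.5 to 55.1 CPM in all libraries, with an interval from -0.25 to 0.35.

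Upstream sequence is shown for 9 of these genes, namely the 5 with an unadjusted p under 0.05, Slc16a3 and Bnip3, which were high in Control 1, and the abundant Ldha and Pgk1. Capitals mark 1 HIF-binding core ACGTG in each stretch, or CACGT where that core is on the other strand. Further ACGTG cores within the stretches of Pgk1 and Ldha are left in lower case. So are matches to GCGTG on either strand within those of Vegfa, P4ha2 and Bnip3. Each stretch is from RefSeq on GRCm38.p6 and reads 5′ to 3′ on the strand of the gene, upstream of a transcription start.
Slc2a1: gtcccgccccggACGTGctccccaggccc
Slc16a3: cgtgcgcgggggACGTGccgcgcgac
Pgam1: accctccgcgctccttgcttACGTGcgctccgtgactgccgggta
Pgk1: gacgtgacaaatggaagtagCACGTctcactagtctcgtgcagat
Ldha: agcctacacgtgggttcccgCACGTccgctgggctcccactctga
Vegfa: ggagtgcgtgccCACGTcagagagcaaca
Bnip3: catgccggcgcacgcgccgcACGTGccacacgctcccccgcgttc
P4ha2: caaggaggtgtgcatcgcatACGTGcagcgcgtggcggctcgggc
Ddit4: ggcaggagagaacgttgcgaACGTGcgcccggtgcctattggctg

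They lie at chr4:119108697-119108725 (plus strand) for Slc2a1, chr11:120949041-120949066 (plus) for Slc16a3, chr19:41911737-41911781 (plus) for Pgam1, chrX:106186949-106186993 (plus) for Pgk1 and chr7:46845750-46845794 (plus) for Ldha. The others are at chr17:46025358-46025386 (minus) for Vegfa, chr7:138909589-138909633 (minus) for Bnip3, chr11:54100826-54100870 (plus) for P4ha2 and chr10:59951933-59951977 (minus) for Ddit4. The starts used for Slc16a3, Ldha and Vegfa lie inside the annotated gene. The stretches of Slc2a1, Slc16a3 and Vegfa overlap an exon of some transcript in GENCODE M21. The motifs ACGTG and GCGTG were searched on both strands in the 250 bases before each start, and a CACGTG counts on both strands. At least 1 of them was found for 32 of 35 genes with an entry, 91.4%. The share was 57.3% of tested genes and 41.5% of all genes with an entry. By window it was 76.9% of the 52 windows of these 35 genes, 51.8% of those of tested genes and 38.6% of all windows. ACGTG on either strand was found for 8 of 10 hypoxia response targets with an entry and 7 of 16 enzymes, against 23.6% of tested genes. Of Vegfa's 2 windows only that before its second start held a match. Epas1, Bnip3l and Ndrg1 had no entry. The core stood upstream of genes high in Control 1, of genes lower in both knockouts and of genes with overlapping groups alike, and a match is a description of the sequence only.

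Of the other genes of these pathways, taken from 3 longer lists, edgeR called 0 in either direction. Of 34 other glycolysis and pyruvate genes 28 were tested, with 14 below 0, 14 above and a median of 0.015. Fbp2, a fructose bisphosphatase that works against phosphofructokinase, measured 16.1 and 13.9 CPM in Control and 22.4 and 33.8 CPM in Smad4 Knockout, so both knockouts were higher (log2 fold change 0.91, SE 0.22, unadjusted p = 0.00638, edgeR adjusted p = 0.677, DESeq2 adjusted p = 0.0322, and 0.59 without Smad4 Knockout 2). Pfkfb2, a relative of Pfkfb3, was at 36.4 CPM in each control and at 44.5 and 49.99 CPM in Smad4 Knockout (0.38, SE 0.11, edgeR adjusted p = 0.677). On the lower side the log2 fold change of Bpgm, bisphosphoglycerate mutase, was -0.29 (SE 0.15). Ldhb, the heart subunit of lactate dehydrogenase and named after its values were seen, was exceeded by Ldha 72.4 and 49.7 times per length in the 2 Control libraries and 51.8 and 34.1 times in the knockouts.

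All 14 other oxygen sensing genes were tested, with 7 below 0, 7 above and a median of -0.018. Vhl, which encodes the ligase subunit that removes hydroxylated HIF, was at 29.2 and 28.9 CPM versus 32.5 and 33.2 CPM (log2 fold change 0.18, SE 0.11, edgeR adjusted p = 0.873). Siah2, a ligase for prolyl hydroxylases, was at 22.3 and 20.6 versus 18.2 and 17.4 CPM (-0.27, SE 0.13, edgeR adjusted p = 0.828). Egln2, the third prolyl hydroxylase, was at -0.099 (SE 0.10), and Arnt2, a HIF partner at most at 0.856 CPM, was at 0.59 (SE 0.57) on the log2 fold change scale. The 14 genes thus divided evenly around 0, and Vhl and Siah2 lay on opposite sides.

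Of 33 other hypoxia response targets 31 were tested, with 24 below 0, 7 above and a median of -0.079, and at an unadjusted p under 0.05 4 were lower and 1 higher. Igfbp3, a binding protein of insulin-like growth factors, measured 185 and 180 CPM in Control versus 134 and 87.1 CPM (log2 fold change -0.73, SE 0.20, edgeR adjusted p = 0.677, DESeq2 adjusted p = 0.0494). Smad4 Knockout 2 was its lowest library, as it was for 15 of the 31, and without that library its log2 fold change was -0.44. Car12, carbonic anhydrase XII, was at 8.27 and 7.22 versus 11.4 and 10.5 CPM (0.50, SE 0.17, edgeR adjusted p = 0.703), and Edn1, endothelin 1, was at 30.6 and 28.2 versus 39.1 and 32.9 CPM (0.29, SE 0.14, edgeR adjusted p = 0.819). Car12, of the same family as Car9, was likewise higher in the first library of each group. Unlike for Car9, both knockouts lay above both controls.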

How the data were processed

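Total RNA of 2 Control and 2 Smad4 Knockout libraries was read from a stranded kit, per the labels' protocols, and libraries were grouped by the genotype label. HISAT2 2.1.0, StringTie 2.1.3b, Trimmomatic, bcl2fastq 2.20.0 and mm10 are listed in the submitters' processing notes. The sources used here do not state how reads were filtered, counted or assigned to a strand. Per the file headers, every gene has a count, an FPKM and a TPM. Deposited counts were whole numbers and were handled as estimated counts. The deposited TPM values were used for levels between genes and for alternative tests. The FPKM values of the authors were not used, and neither was 1 FPKM column repeated in another sample's file (equal at all 45777 genes). The columns of Control 2 carry its title with an added 2. Spreadsheet dates had replaced 26 gene symbols, which were restored by gene ID, and all 169 listed genes matched, 1 by synonym.

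The test was edgeR 4.0.16 under R 4.3.3, with TMM scaling, a quasi-likelihood F-test on genotype alone, genes kept by filterByExpr (minimum count 10) and Benjamini-Hochberg adjustment over 18115 genes. Libraries of 1 group varied with a coefficient of variation of 26.1% (common dispersion 0.0680). Exact permutation of 2 against 2 libraries was not used, as its smallest two-sided p is 0.333. Alternatives were RLE size factors, no filter, DESeq2 1.42.0, limma 3.58.1 with trend on log2(TPM + 1) with and without a filter (1 TPM in at least 2 libraries) and on log2(TPM + 0.1), dropping 423 genes (mitochondrial, ribosomal protein, histone), and dropping each library in turn. Tests were tried on simulated data. The 38 genes and all lists were chosen with earlier results of these data known. All 38 are named. Full values are given for the 12 with the smallest p, for lead genes of each role and for isozyme families, and of other pathway lists for the 2 genes lowest in p on either side of 0, and some genes that count in the list totals are not reported here by name. Coordinates are RefSeq's on GRCm38.p6, and starts of 42 of 52 promoter windows were found in GENCODE M21 transcripts. The starts behind the stretches shown for Pgam1, Ldha and Vegfa were not found there.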

Additional observations from a re-analysis of the deposited data

How the results depend on the processing

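No paired analysis was possible because the labels give no replicate numbers, and numbers given in the order of the samples pair nothing. Under all 11 alternatives 0 of the 38 genes were called in either direction, and the smallest adjusted p of any was 0.148, in DESeq2. Over all genes DESeq2 called 96 higher and 31 lower, and leaving out each library gave 0 to 48 higher and 0 to 44 lower, the highest counts without Smad4 Knockout 1. The count of genes lower at an unadjusted p under 0.05 was 3 with limma on log2(TPM + 1) or log2(TPM + 0.1), 1 with limma without a filter, and 0 to 11 when a library was left out, and the count higher was 0 to 2. These counts, and that of genes below 0, which was 18 to 30 when a library was left out, were added after seeing the data. The median of the 38 ranged from -0.23 without Control 2 to 0.0078 without Control 1. Each differed from -0.12 by less than the spread between replicates of 0.13. That spread came mostly from the 2 controls, whose medians relative to the 4 libraries were 0.18 and -0.064. Leaving out a control moves the median by part of that same gap, so the comparison cannot show that the median is stable.

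Direction was kept in 244 of 264 values of the 38 genes under the alternatives other than leaving out a library. The other 20 belong to 6 genes with changes near 0. With limma on log2(TPM + 1), with or without a filter, Slc16a1 was at 0.017, Pfkl at 0.032, Aldoc at 0.0035, Pfkfb4 at 0.051, Pdk1 at 0.019 and Ankrd37 at 0.011, and on log2(TPM + 0.1) they were at 0.017, 0.032, 0.0046, 0.064, 0.020 and 0.0080. Ankrd37 was at 0.0019 with no filter on counts and 0.0016 without mitochondrial, ribosomal protein and histone genes. When a library was left out, 31 of 152 values changed direction, in 20 genes. Their ranges were -0.10 to 0.070 for Slc16a1, -1.39 to 0.11 for Slc16a3, -0.14 to 0.038 for Gpi1, -0.22 to 0.22 for Pfkl, -0.29 to 0.014 for Aldoa, -0.24 to 0.20 for Aldoc and -0.15 to 0.30 for Tpi1. They were -0.0015 to 0.12 for Gapdh, -0.26 to 0.0072 for Eno1, -0.56 to 0.22 for Eno2, -0.24 to 0.0083 for Pkm, -0.32 to 0.077 for Ldha, -0.12 to 0.27 for Pfkfb3, -0.23 to 0.15 for Pfkfb4 and -0.26 to 0.24 for Pdk1. They were -0.16 to 0.019 for Bnip3l, -0.36 to 0.29 for Ankrd37, -0.48 to 0.38 for Car9, -0.060 to 0.17 for Kdm3a and -0.26 to 0.075 for Hilpda, and for Trp53 -0.46 to 0.054. The cause was not tested. Eno2 had only 21 to 33 counts per library, at 0.37 CPM or less, and its 95% interval ran from -2.04 to 1.78.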
